A study of Rattus norvegicus with 16 samples.

Results

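The extracellular matrix and integrin genes measured here were the probe sets whose annotation gave 1 gene symbol and whose symbol named a collagen chain, a laminin chain, an integrin subunit, a syndecan, a matrix metalloproteinase (Mmp) or a tissue inhibitor of metalloproteinases (Timp), or was Fn1, Dcn, Bgn, Sparc, Spp1 or Eln. The rule used names only and found 86 probe sets of 57 genes among 8740 probe sets and 4736 named genes. A probe set is a group of short probes for 1 transcript on an Affymetrix array, and a gene can have several. Of the 86, 49 probe sets of 36 genes passed the filter on low values in the retina arrays, and 57 probe sets of 43 genes passed it over both tissues. Total RNA of rat (Rattus norvegicus) retina and pineal gland was hybridised to 16 arrays. Retina had 3 arrays, numbered 1 to 3 in the titles, at each of ZT6, ZT12, CT6 and CT12, and the pineal had 1 array at each. ZT is Zeitgeber time, which by convention is set by a light-dark cycle, and CT is circadian time, set by the internal clock, and 6 and 12 are hours. The labels name no strain, age, sex, genotype or treatment for any group, do not describe the lighting, and do not say whether the numbered arrays came from separate animals, so p-values measure only the spread between these samples.

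Collagens, laminins, fibronectin and elastin form the fibres and sheets that surround cells, and small proteoglycans such as decorin and biglycan bind to and organise those fibres. Integrins and syndecans are the membrane receptors that hold cells to this material, while metalloproteinases cut it and Timps block them. In the eye this material builds the inner limiting membrane, Bruch's membrane, the vessel walls, the lens capsule and the vitreous, and in the pineal it fills the connective tissue around lobules and vessels. In bulk tissue, fewer cells of a type and less RNA per cell cannot be told apart.

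Levels are given as log2 of the deposited intensity plus 16, after quantile normalization within the retina arrays or over both tissues, and a level of 1 probe set is not comparable with that of another. The retina arrays had median intensities of 671.3 to 858.4 and the pineal arrays 531.6 to 576.3. Array 1 of CT12 stood apart: its median Spearman correlation with the other 11 retina arrays was 0.699, against 0.918 to 0.954 for the rest. The 6 rod photoreceptor marker genes measured had a mean level of 11.73 on that array and 15.09 to 16.02 on the others, so the library labelled retina at CT12, array 1, carried low rod signal. Of the pineal marker list, Tph1, the first enzyme of serotonin synthesis, lay at 14.00 to 14.64 on the pineal arrays and had a median of 6.25 in the retina. Asmt, Ddc, Chrna3 and Aanat also lay above their retina medians there. Isl1, at 7.19 to 8.92 against a retina median of 12.06, Sag and Pdc lay below theirs, so the list as a whole did not separate the tissues. The pineal array titled ZT 12 carries a description that gives 6 h, and it and the retina arrays numbered 3 carry another source label than the rest. The titles were followed.

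Across the 12 retina arrays the matrix and integrin probe sets moved mainly together, and the arrays that set the extremes were ZT6 array 2 and CT6 array 3 at the low end and CT12 arrays 1 and 2 at the high end. The median deviation of the 49 probe sets from their own 12-array median was 0.08, -0.39 and -0.15 at ZT6 and -0.03, -0.05 and 0.11 at ZT12, in the order of arrays 1, 2 and 3. It was 0.11, -0.09 and -0.51 at CT6 and 1.06, 0.44 and 0.03 at CT12. The third array of CT12 therefore sat with the ZT12 arrays, and the other CT12 arrays sat above them. On CT12 array 1, 28 of the 49 lay above all other 11 arrays and 3 lay below them, against 33.1% and 34.9% of all probe sets tested. The 3 that lay below were Spp1, Itga1 and 1 of the 4 Sparc probe sets. The distance above the highest of the other arrays was 1.61 and 1.49 for the Dcn probe sets, 1.46 for Bgn, 1.22 for Col9a1 and 1.20 for a Timp1 probe set, while the Sparc probe set lay at -0.94 from the lowest. On CT6 array 3, 17 of the 49 were the lowest of all 12 arrays, against 9.4% of all probe sets, and on ZT6 array 2 this held for 12 of 49, against 6.94%. On ZT6 array 1, for comparison, 1 was the highest and 3 were the lowest of the 12 arrays, against 3.78% and 4.46% of all.

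**Figure D1:**
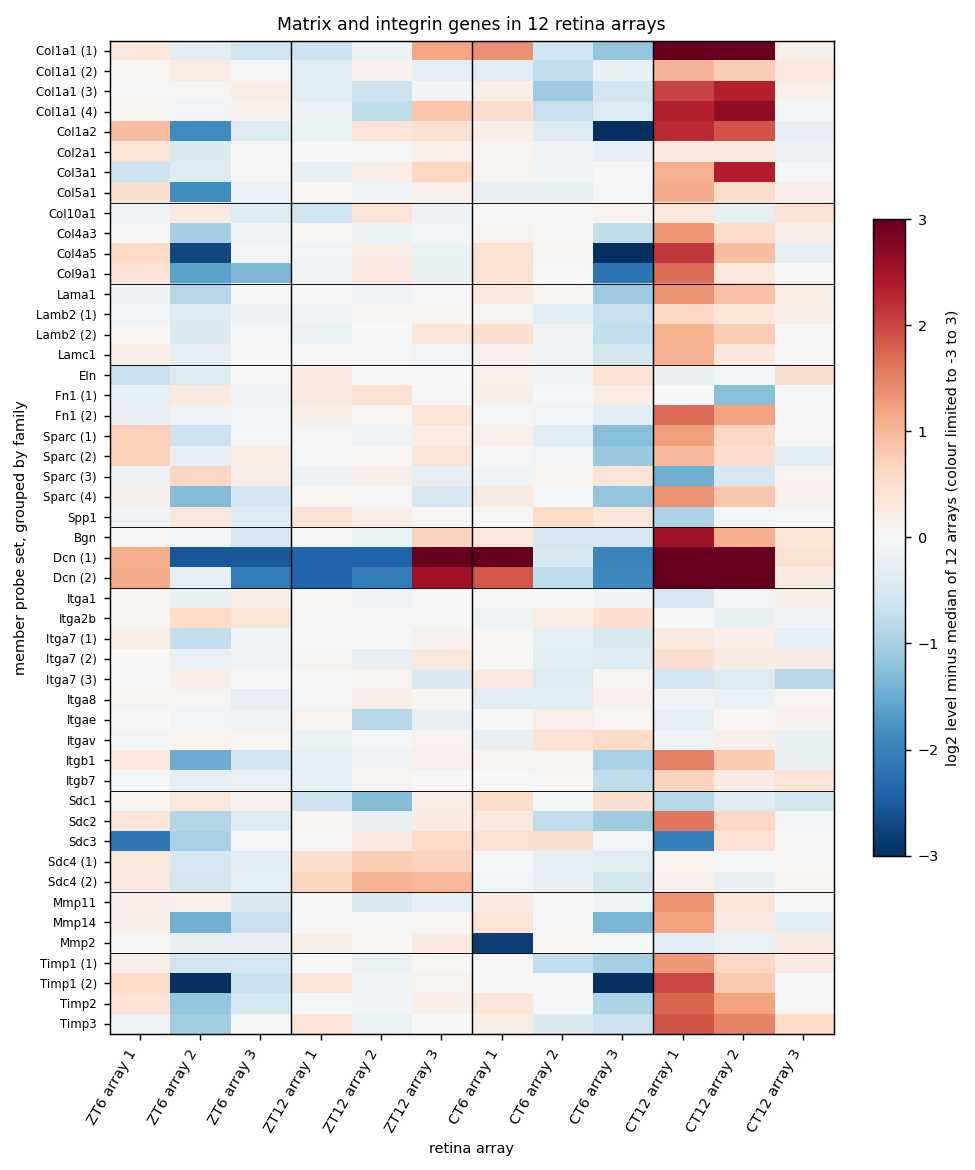
Each cell is the log2 level of a probe set on a retina array minus its median over the 12 arrays, for the 49 matrix and integrin probe sets past the filter, grouped by family, with the colour limited to 3 log2 units either way. Red fills most of the columns of CT12 arrays 1 and 2, where the median deviation is 1.06 and 0.44, and blue is most frequent on ZT6 array 2 and CT6 array 3.

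Markers of some other cell types moved on the same arrays, and those of others fell or went both ways. The 14 lens genes measured, chiefly crystallins, had a median deviation of -3.61 on ZT6 array 2 and -3.83 on CT6 array 3, and of 2.53 and 2.17 on CT12 arrays 1 and 2. Their mean level ranged from 11.34 to 14.37 at ZT6 and 13.89 to 15.72 at ZT12. It ranged from 11.18 to 14.80 at CT6 and 15.05 to 16.96 at CT12. On ZT6 array 2 and CT6 array 3, Bfsp1 read 6.48 and 7.01, while Cryaa read 14.14 and 13.97. Mip read 6.73 and 6.55 there by X53052cds_g_at, and 10.59 and 10.11 by X53052cds_at. The offset of 16 keeps levels above 0, so the absence of a lens gene was not tested. Smooth muscle and pericyte markers, of which 5 of 9 measured genes passed the filter, deviated by 2.76 on CT12 array 1 and by 1.59 on ZT12 array 3, and by 0.07 on CT12 array 2. The 5 fibroblast markers deviated by a median of 0.95 and 0.51 on CT12 arrays 1 and 2 and of -0.55 and -0.57 on ZT6 array 2 and CT6 array 3. Thy1 of that list went the other way on CT12 array 1, at 10.29 against 13.98 to 14.56 on the rest by rc_AA874848_s_at. Endothelium markers had mean levels of 9.82 to 10.32 at CT12 and 9.70 to 10.16 in the other groups, but disagreed on CT12 array 1. There Kdr read 9.82 and Pecam1 8.01, against 11.56 to 12.55 and 8.70 to 9.47 on the rest. Flt1 read 10.95 and Nos3, by AJ011115_g_at, 11.37, against 8.84 to 10.28 and 9.97 to 11.05, while Edn1 lay within the range of the rest. Ganglion cell markers had 10.48 to 12.70 at CT12 and 12.82 to 13.13 in the others. The part of these cell types in the matrix levels was not tested.

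**Figure D2:**
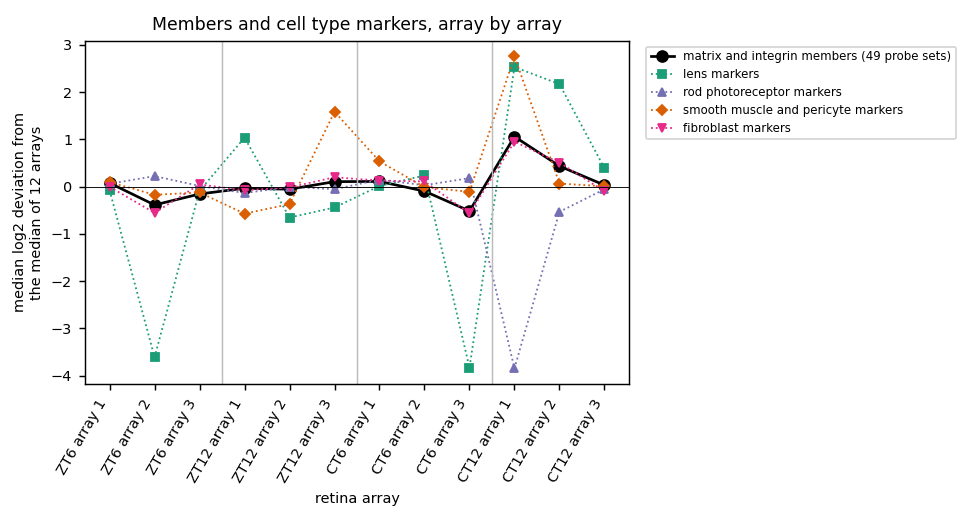
The vertical axis is the median log2 deviation of a list from the 12-array median and the horizontal axis is the retina array, with black circles for the 49 matrix and integrin probe sets and coloured symbols for markers of lens, rods, smooth muscle and fibroblasts. The black line runs from -0.51 on CT6 array 3 to 1.06 on CT12 array 1, where lens and smooth muscle markers are high and rod markers low.

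Among the fibrillar collagens, which form the banded fibres of connective tissue, the type I chains varied most among the probe sets past the filter. Col1a1, the alpha 1 chain, was measured by 4 probe sets that shared the same high arrays. Its probe set M27207mRNA_s_at read 9.73, 9.07 and 8.79 at ZT6, 8.77, 9.18 and 10.58 at ZT12, 10.76, 8.80 and 8.22 at CT6, and 13.17, 13.48 and 9.60 at CT12. Arrays 1 and 2 of CT12 stood more than 2 log2 units above all others, while array 3 of that group lay inside the range of the other groups. Col1a2, the partner chain, read 11.98, 9.15 and 10.63 at ZT6, 10.85, 11.46 and 11.49 at ZT12, 11.23, 10.64 and 8.05 at CT6, and 13.27, 12.93 and 10.79 at CT12. It was lowest on the same arrays as the lens genes, ZT6 array 2 and CT6 array 3. Col3a1, the chain of the type III fibres of vessels, ranged from 8.77 on ZT6 array 1 to 11.74 on CT12 array 2 by M21354_s_at, and from 6.08 to 12.52 by X70369_s_at, which was under the filter. Col2a1, the fibril collagen of cartilage and vitreous, stayed between 12.06 and 12.89 over all 12 arrays by the probe set past the filter.

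Of the basement membrane chains, Col4a5, a type IV collagen of specialised basement membranes, had the widest range. It read 10.89, 7.56 and 10.21 at ZT6, 10.21, 10.53 and 10.10 at ZT12, 10.75, 10.38 and 6.29 at CT6, and 12.41, 11.23 and 10.00 at CT12. Here too the low readings were ZT6 array 2 and CT6 array 3 and the high ones CT12 arrays 1 and 2. Col4a3, which pairs with that chain, followed the same order over a smaller range, from 8.43 on ZT6 array 2 to 10.77 on CT12 array 1. Laminins are the other large proteins of basement membranes. The gamma 1 chain Lamc1 ranged from 10.53 on CT6 array 3 to 12.13 on CT12 array 1, and the alpha 1 chain Lama1 from 7.97 to 10.41 on the same arrays. Lamb2, the beta 2 chain that is prominent at synapses and in the retina, read 10.77, 10.43 and 10.68 at ZT6, 10.73, 10.94 and 10.94 at ZT12, 10.96, 10.51 and 10.15 at CT6, and 11.48, 11.22 and 11.04 at CT12 by its probe set rc_AA900848_at. All 3 CT12 arrays lay above all CT6 arrays.

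Decorin, a small proteoglycan that binds collagen fibrils and is made by fibroblasts, had the widest spread of all 49. Its probe set X59859_i_at read 9.91, 6.28 and 6.31 at ZT6, 6.42, 6.42 and 13.52 at ZT12, 12.07, 8.37 and 6.82 at CT6, and 15.06, 13.57 and 9.27 at CT12. Every group held arrays several log2 units apart, and the groups overlapped. The high arrays for Dcn included ZT12 array 3 and CT6 array 1. Lens genes were not high there, and smooth muscle markers were above their median by 1.59 and 0.54. The fibroblast marker Lum read 10.30 and 9.15 there, 11.34 and 10.31 on CT12 arrays 1 and 2, and 7.38 to 9.34 on the rest. The part of any of these cell types in the Dcn levels was not tested. Biglycan, its close relative, read 10.43, 10.30 and 9.88 at ZT6, 10.34, 10.18 and 11.07 at ZT12, 10.72, 9.89 and 9.87 at CT6, and 12.93, 11.48 and 10.78 at CT12. The CT12 arrays of Bgn all exceeded the CT6 arrays, although array 3 at CT12 and array 1 at CT6 were close.

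Of the matrix glycoproteins, fibronectin binds integrins and collagen, and its probe set X05834_at read 9.94, 10.10 and 10.12 at ZT6, 10.40, 10.25 and 10.59 at ZT12, 10.16, 10.12 and 9.87 at CT6, and 11.90, 11.40 and 10.23 at CT12. In both regimes each hour 12 array was above each hour 6 array. A second Fn1 probe set, U82612cds_at, did not share that order and was lowest, at 8.21, on CT12 array 2. Sparc, a secreted glycoprotein of remodelling matrix and of glia, had 4 probe sets that disagreed. The brightest, rc_AA892248_at, read 15.43, 16.21 and 15.76 at ZT6, 15.41, 15.78 and 15.34 at ZT12, 15.49, 15.71 and 15.99 at CT6, and 14.14, 15.07 and 15.69 at CT12. It was lowest on CT12 array 1 and highest on ZT6 array 2, whereas the other 3 Sparc probe sets were highest on CT12 array 1. Spp1, or osteopontin, a secreted phosphoprotein that binds integrins, ranged from 8.52 on CT12 array 1 to 10.07 on CT6 array 2, and Eln, or elastin, from 9.37 to 10.55 with no group apart.

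Most integrin subunits, the receptors for these proteins, had narrow ranges. Itgb1, the beta 1 subunit that pairs with many alpha subunits, read 12.93, 11.10 and 11.99 at ZT6, 12.29, 12.49 and 12.73 at ZT12, 12.68, 12.69 and 11.61 at CT6, and 14.10, 13.37 and 12.36 at CT12. It was highest on CT12 arrays 1 and 2 and lowest on ZT6 array 2 and CT6 array 3. Itga1, a collagen receptor subunit, stayed between 9.11 and 9.80, and Itgav, the subunit of the vitronectin receptors, between 10.24 and 11.08. Itga7, a laminin receptor subunit, had a range of 10.60 to 11.59 by its brightest probe set. Its probe set X74293_s_at was lower on the CT12 arrays, at 8.63 to 9.06, than on the CT6 arrays, at 9.08 to 9.75, while X65036_g_at was higher there, at 10.91 to 11.13 against 10.27 to 10.65.

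Syndecan 4, a heparan sulphate proteoglycan that works with integrins in focal adhesions, was the member with the smallest p between ZT12 and ZT6. Its promoter is shown for that reason. The 180 bases before the start of rat Sdc4, from RefSeq on build GRCr8, chr3:173592924-173593103 on the minus strand, hold 5 GC boxes (GGGCGG on either strand, the last pair overlapping), shown in capitals.
Sdc4: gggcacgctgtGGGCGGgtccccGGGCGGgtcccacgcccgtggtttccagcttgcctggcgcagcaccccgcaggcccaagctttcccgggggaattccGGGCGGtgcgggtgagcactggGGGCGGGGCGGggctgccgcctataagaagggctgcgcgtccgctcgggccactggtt

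The probe set S61868_g_at of Sdc4 read 15.14, 14.28 and 14.54 at ZT6, 15.49, 15.85 and 15.84 at ZT12, 14.74, 14.59 and 14.28 at CT6, and 15.00, 14.62 and 14.92 at CT12. All 3 ZT12 arrays were above all 9 others, including the CT12 arrays, and CT12 arrays 1 and 2 did not stand out. The other probe set of the gene past the filter, S61868_at, had the same order of groups, with ZT12 at 14.95 to 15.18 and the other arrays at 13.93 to 14.76. Sdc1, a syndecan of epithelia, ran the other way. It read 9.49, 9.75 and 9.53 at ZT6, 8.79, 8.11 and 9.63 at ZT12, 9.96, 9.32 and 9.89 at CT6, and 8.54, 9.01 and 8.84 at CT12. The CT12 arrays lay below the CT6 arrays, but ZT12 array 3 lay within the ZT6 range. Sdc2, the fibroblast syndecan, ranged from 9.75 on CT6 array 3 to 12.43 on CT12 array 1. Sdc3, the neural syndecan, was lowest on ZT6 array 1 and CT12 array 1, at 8.07 and 8.16, and between 9.26 and 10.83 on the rest.

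**Figure D3:**
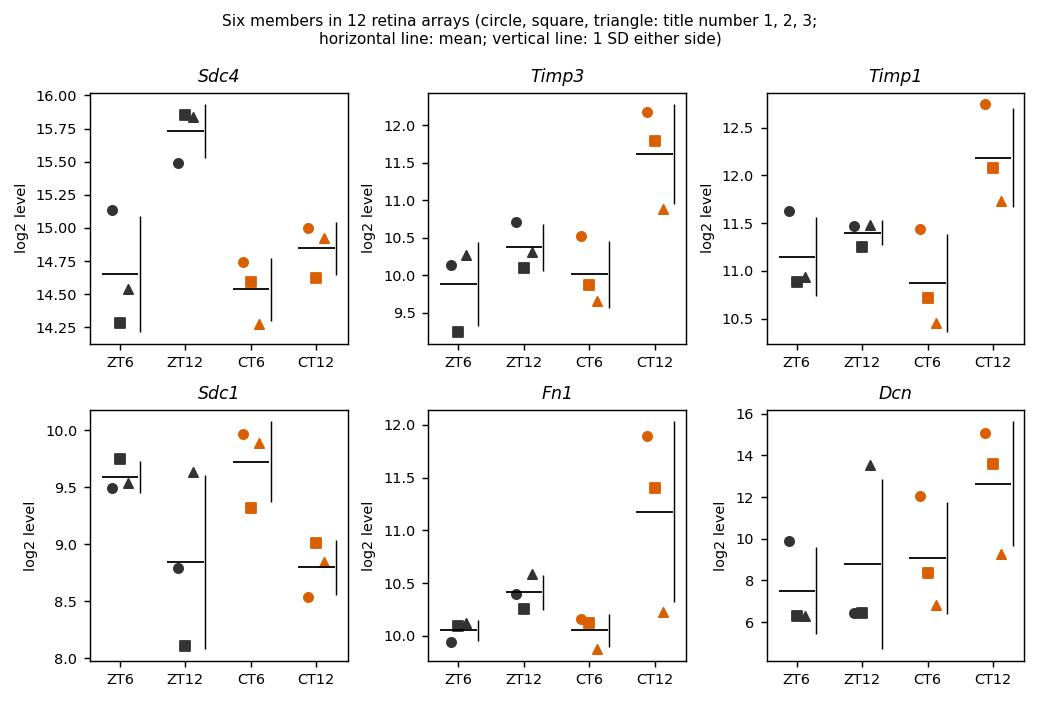
Each panel shows the log2 level (vertical axis) of 1 probe set of Sdc4, Timp3, Timp1, Sdc1, Fn1 and Dcn on the 12 retina arrays by group (horizontal axis), with symbols for the title number, a horizontal line for the mean of 3 arrays and a vertical line for 1 SD either side. The ZT12 arrays of Sdc4 lie at 15.49 to 15.85, above the other 9, while Dcn spans 6.28 to 15.06 with overlap between groups.

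Of the enzymes, Mmp14, a membrane-bound collagenase, ranged from 10.51 on ZT6 array 2 to 13.16 on CT12 array 1. It shared the low arrays, with CT6 array 3 at 10.58, but CT6 array 1, at 12.35, lay above CT12 array 2, at 12.21. Mmp11, a stromal metalloproteinase, ranged from 8.88 on ZT12 array 2 to 10.72 on CT12 array 1. Mmp2, the gelatinase A, stayed between 8.85 and 9.48 on 11 arrays by its probe set X71466_at, but read 6.36 on CT6 array 1. Each of the 3 inhibitors had its highest reading on CT12 array 1. Timp1, an inducible inhibitor, read 11.62, 10.88 and 10.94 at ZT6, 11.47, 11.25 and 11.48 at ZT12, 11.44, 10.72 and 10.45 at CT6, and 12.74, 12.08 and 11.73 at CT12 by rc_AI169327_at. Timp2, which also takes part in activating Mmp2, ranged from 11.35 on ZT6 array 2 to 14.29 on CT12 array 1.

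Timp3, the inhibitor that binds to the matrix and is made by the retinal pigment epithelium, had the smallest p of the inhibitors between CT12 and CT6, so its promoter is shown. The 160 bases before the start of rat Timp3, from RefSeq on GRCr8, chr7:19459559-19459718 on the minus strand, hold 3 GC boxes and 1 CCAAT box (ATTGG on this strand), in capitals.
Timp3: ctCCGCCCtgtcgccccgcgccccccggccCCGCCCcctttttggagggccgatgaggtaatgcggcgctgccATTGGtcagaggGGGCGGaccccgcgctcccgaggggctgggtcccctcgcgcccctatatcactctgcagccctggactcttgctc

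The Timp3 levels were 10.14, 9.24 and 10.28 at ZT6, 10.71, 10.10 and 10.31 at ZT12, 10.52, 9.87 and 9.65 at CT6, and 12.17, 11.79 and 10.88 at CT12. Here array 3 of CT12 was also above all 9 arrays of the other groups, although by less than the other CT12 arrays. The 3 retinal pigment epithelium genes measured had mean levels of 11.62 to 11.76 at CT12, 10.31 to 11.90 at CT6, 9.70 to 11.31 at ZT12 and 10.16 to 11.05 at ZT6. Their part in the Timp3 levels was not tested. RefSeq promoters were found for 40 of the 57 genes. Within 250 bases before the start, a GC box lay in 19 of 40 (47.5%, against 30.5% of 33469 promoters), and a CCAAT box, on either strand, in 8 of 40 (20%, against 34.0%). The E-box CACGTG, a site bound by clock factors, was found in 1 of 40, that of Mmp12, against 5.59% of all, and the cyclic AMP element TGACGTCA in 0 of 40, against 1.59%.

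With 3 arrays a group, none of the retina comparisons called a matrix or integrin probe set. At ZT12 against ZT6, limma, which fits a linear model to each probe set with a shared estimate of spread, called 0 of 49 at an adjusted p under 0.05, against 0.286% of all 5244 probe sets, and 3 of 49 had an unadjusted p under 0.05, against 8.62% of all. The median difference was 0.27 log2 units, against -0.02 over all probe sets. Sdc4 was 1.08 ± 0.23 (SE) higher at ZT12 by S61868_g_at, with an adjusted p of 0.113 by limma, and 0.83 ± 0.21 higher by S61868_at, with an adjusted p of 0.193. Without CT12 array 1, which lies in neither group but enters the shared estimate of spread, the first of these was 1.04 and passed, with an adjusted p of 0.0477, the only call among 48 probe sets, against 1.51% of all probe sets in that fit. Sdc3 differed by 1.33 ± 0.64 and Eln by 0.45 ± 0.24, and on the lower side Sdc1 by -0.75 ± 0.33, Itga2b, the platelet integrin subunit, by -0.39 ± 0.19 and Sparc by -0.29 ± 0.35, none past the threshold. With single arrays left out, Sdc1 ran from -1.14 to -0.38, Itga2b from -0.53 to -0.28 and Sparc from -0.48 to -0.08. The arrays of the groups did not overlap for 5 probe sets that were higher at ZT12, against 10.3% of all, and for 2 that were lower, against 15.1%.

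Between CT12 and CT6 the differences were larger and also more uneven between arrays. Limma called 0 of 49 probe sets, against 0.0381% of all, while 23 of 49 had an unadjusted p under 0.05, against 27.4% of all. The median difference was 0.79, against -0.06 over all probe sets, and 38 of 49 were positive. Timp3 was 1.60 ± 0.38 higher at CT12 (adjusted p = 0.111), Timp1 1.32 ± 0.32 (adjusted p = 0.111), Fn1 1.12 ± 0.34 (adjusted p = 0.128) and Lamb2 0.70 ± 0.21 (adjusted p = 0.128), all by limma and all without overlap between the groups by the brightest probe set. The second Fn1 probe set, U82612cds_at, went the other way, with means of 9.06 at CT12 and 9.61 at CT6. The second Lamb2 probe set, rc_AI104225_at, had means of 11.10 and 10.39 with overlap. Col1a1 differed by 1.83 ± 0.66 by its brightest probe set and by 1.12 ± 0.22 by Z78279_at, for which the adjusted p was 0.0953. On the lower side Sdc1 differed by -0.92 ± 0.33, Spp1 by -0.68 ± 0.28 and Sparc, by its brightest probe set, by -0.76 ± 0.35. The other Sparc probe sets were higher at CT12, with means of 13.41, 11.82 and 13.03 against 12.30, 11.01 and 11.95 at CT6. By family, all 8 fibrillar collagen, 4 other collagen, 4 laminin and 4 Timp probe sets were positive, with medians of 1.47, 1.06, 0.71 and 1.46, while the 10 integrin probe sets had a median of -0.00 with 5 positive. Groups did not overlap for 11 higher probe sets, against 10.6% of all, and 3 lower ones, against 15.9%. Lama1, the Timp1 probe set rc_AI169327_g_at and the Dcn probe sets X59859_i_at and Z12298cds_s_at reached the filter limit of 8.88 only through the CT12 arrays. At CT6 their means were 8.83, 8.44, 9.09 and 8.63, and at CT12 9.89, 10.49, 12.63 and 11.54. The filter therefore favoured higher CT12 values for these probe sets. Their part in the counts and medians of comparisons with CT12 is a description.

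The array left out decided the CT12 counts. Without CT12 array 3, limma called 21 of 51 probe sets, 20 higher and 1 lower, against 24.9% of all probe sets in that fit. The calls then included Fn1, at 1.61 ± 0.19 with an adjusted p of 0.00955, Timp3, at 1.98 ± 0.36 with an adjusted p of 0.0168, and all 4 Col1a1 probe sets, at 1.32 to 4.09. The 1 lower call was the brightest Sparc probe set, at -1.13 ± 0.32, while the Sparc probe sets rc_AA891204_s_at and Y13714_at were called higher, at 1.17 and 1.42. The direction for Sparc therefore depends on the probe set. The higher calls also included Lama1, and Col3a1 by X70369_s_at, which was under the main filter. The Col3a1 means were 8.44 at ZT6, 8.16 at ZT12 and 8.26 at CT6, against 11.40 and 12.52 on CT12 arrays 1 and 2. This probe set entered the fit once CT12 array 3, at 6.08, was left out, so its higher call is a description. Without CT12 array 1 the median difference was 0.54 over 48 probe sets, and 0 were called. Without ZT6 array 2 and CT6 array 3, the low arrays for lens genes, it was 0.52.

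The comparison of the regimes at hour 12 uses the same CT12 arrays as the one before. Between CT12 and ZT12 limma called 0 of 49, against 0.61% of all probe sets, with 14 of 49 at an unadjusted p under 0.05, against 26.2%, and a median difference of 0.56, against -0.02. Timp3 was 1.24 ± 0.38 higher at CT12 (adjusted p = 0.124), Col1a1 1.66 ± 0.66, Bgn 1.20 ± 0.48 and Mmp11 0.83 ± 0.32. These values moved with single arrays: Col1a1 was 1.16 without CT12 array 2 and 2.53 without CT12 array 3, and between the fits without CT12 array 1 and without CT12 array 3 Bgn went from 0.60 to 1.68 and Mmp11 from 0.44 to 1.15. Each of these 3 passed in the fit without CT12 array 3. Sdc4 was lower at CT12, by -0.88 ± 0.23 with an adjusted p of 0.108 by limma, and Spp1 by -0.60 ± 0.28, or -0.31 without CT12 array 1. Groups did not overlap for 11 higher probe sets, against 12.6% of all, and for 3 lower ones, against 16.1%, of which both Sdc4 probe sets were a part. Without CT12 array 3 limma called 11 of 51, 10 higher and 1 lower, against 20.4% of all in that fit. Sdc4 was the lower one, at -0.92 ± 0.27 with an adjusted p of 0.0410. The higher ones included Col3a1 by X70369_s_at, which was under the main filter and entered that fit through CT12 arrays 1 and 2.

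At hour 6 no difference between the regimes passed. Between CT6 and ZT6 limma called 0 of 49 matrix probe sets and 0.0% of all, and 1 of 49, Col1a1 by Z78279_at at -0.50 ± 0.22, had an unadjusted p under 0.05, against 5.07%. The median difference was -0.00 over the members and -0.01 over all probe sets. Sdc3 differed by 1.34 ± 0.64 and Eln by 0.53 ± 0.24. Mmp2 differed by -0.80 ± 0.61, which rests on its reading of 6.36 on CT6 array 1, and without that array the difference was 0.15. Groups did not overlap for 1 probe set in each direction, Itgae higher and Col1a1 Z78279_at lower at CT6, against 7.95% of all that were higher and 9.23% that were lower. The 95% interval of the Timp3 difference ran from -0.72 to 0.97 and that of Sdc4 from -0.63 to 0.40. The intervals at hour 12 were 0.40 to 2.09 for Timp3 and -1.40 to -0.37 for Sdc4. Comparing these intervals by eye is no test of a change between hours. The direct test is the difference between the hour effects, given below.

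Over both regimes, hour 12 against hour 6, limma called 0 of 49, against 0.21% of all, and 22 of 49 had an unadjusted p under 0.05, against 17.6%. The median difference was 0.56, against -0.05 over all, with 40 of 49 positive. Sdc4 was 0.69 ± 0.16 higher at hour 12 (adjusted p = 0.148), Timp3 1.04 ± 0.27 (adjusted p = 0.163), Timp1 0.78 ± 0.23 (adjusted p = 0.188) and Lamb2 0.47 ± 0.15 (adjusted p = 0.208), while Sdc1 differed by -0.84 ± 0.24 (adjusted p = 0.187), all by limma. Fn1, at 0.74 ± 0.24, was the 1 probe set whose 6 hour 12 arrays all exceeded the 6 hour 6 arrays, against 0.42% of all probe sets, and 0 members were lower without overlap, against 1.11%. Without CT12 array 3 limma called 5 of 51, all higher, against 3.39% of all in that fit. They were Fn1, Timp3, Col3a1 and 2 probe sets of Col1a1.

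CT against ZT over both hours gave 0 calls of 49, against 0.0% of all, with 3 of 49 at an unadjusted p under 0.05, against 11.8%, and a median of 0.24, against -0.02. Sdc4 differed by -0.50 ± 0.16 and Timp3 by 0.68 ± 0.27. The test of whether the hour effect itself differed between CT and ZT called 0 of 49, against 0.0191% of all, with 6 of 49 at an unadjusted p under 0.05, against 16%. In that test Col1a1 differed by 1.36 ± 0.31 by Z78279_at (adjusted p = 0.169), Timp1 by 1.06 ± 0.45, Timp3 by 1.12 ± 0.54 (adjusted p = 0.329), Spp1 by -0.95 ± 0.40, Sdc4 by -0.77 ± 0.33 and Sdc3 by -2.15 ± 0.90, so the larger hour difference of Sdc4 under ZT than under CT did not pass (adjusted p = 0.3 by limma). Without CT12 array 3, 2 of 51 were called, against 1.20% of all in that fit, and both were Col1a1 probe sets.

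The pineal and the retina differed in most of the matrix set. Limma called 40 of 57 probe sets, 30 higher and 10 lower in the pineal, against 75.8% of all 5244 probe sets called, 39.4% higher and 36.4% lower, and 41 had an unadjusted p under 0.05, against 77.4%. The arrays of the tissues did not overlap for 14 that were higher in the pineal, against 27.2% of all, and for 7 that were lower, against 24.4%. The share of members called was thus near the background. The median difference was 0.67 log2 units, against 0.09 over all. By gene, 26 of 43 had calls only towards the pineal, 7 only towards the retina, 1 both ways and 9 none. The share of higher calls depended on the scaling: with the values as deposited, 35 were called, 21 higher and 14 lower, against 74.4% of all, the median of the members was 0.36, and the median of all probe sets moved from 0.09 to -0.23. With the arrays set to a common median the medians were 0.87 and 0.28. Of the 40 calls, 26 held in every alternative in which the probe set passed the filter, and 14 were lost in at least 1, 10 of these with the values as deposited. Each pineal condition is 1 array, so the fit takes the condition as a covariate. Of the 57, 9 had a retina mean under the filter limit of 8.82 and passed only through the pineal, and 6 had a pineal mean under it and passed only through the retina, so those had to differ and their values are descriptions. They are probe sets of Col5a2, Col3a1, Col8a1, Col12a1, Col15a1, Col26a1, Dcn, Mmp7 and Mmp23, and of Col2a1, Col9a1, Itgav, Sdc3, Sparc and Mmp11. Of the other 42, 26 were called, 21 higher and 5 lower, against 72.2% of all probe sets with both means over the limit.

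**Figure D4:**
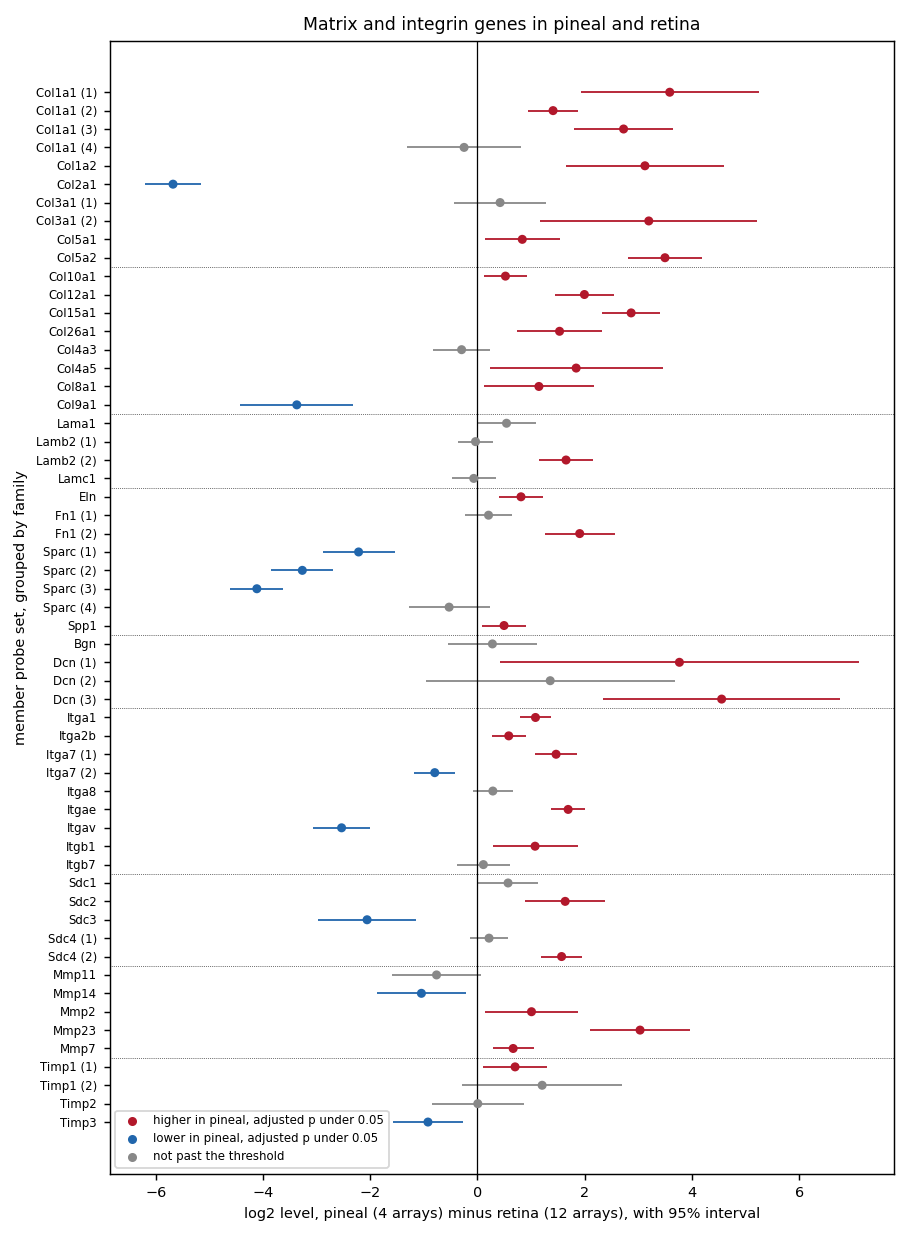
Points give the log2 difference of 4 pineal minus 12 retina arrays and lines its 95% interval, for 57 matrix and integrin probe sets by family, red or blue where the adjusted p was under 0.05. Most collagens lie to the right, with Col5a2 at 3.50, while Col2a1 at -5.68, Col9a1 at -3.37 and 3 of 4 Sparc probe sets lie to the left.

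Of 10 fibrillar collagen probe sets 7 were called higher in the pineal and 1 lower. Of 8 other collagen probe sets 6 were called higher and 1 lower. The shares of all probe sets were 39.4% higher and 36.4% lower. Col1a1 alone gave 4 of the 10 and 3 of the 7 higher calls. Members of both groups were among those that passed through 1 tissue. Col5a2, which helps start type I fibrils, read 12.45, 12.33, 11.87 and 11.80 in the pineal at ZT6, ZT12, CT6 and CT12, and from 7.96 to 10.35 with a median of 8.48 in the retina. The pineal arrays were 3.50 ± 0.32 (SE) higher, but this probe set passed the filter through the pineal alone. Col1a2 read 14.89, 14.27, 13.77 and 13.46 in the pineal and 7.95 to 13.33 in the retina, a difference of 3.12 ± 0.68 with an adjusted p of 0.000824 by limma. Its lowest pineal array was above its highest retina array, which was CT12 array 1. Col15a1, a collagen at the border of basement membranes and interstitium, was 2.87 ± 0.25 higher and Col12a1, which coats fibrils, 1.99 ± 0.26, both without overlap and both through the pineal alone. Col1a1 rose by 3.58 ± 0.77 by its probe set M27207mRNA_s_at, with overlap through CT12 arrays 1 and 2, and its probe set rc_AI231472_s_at did not pass, at -0.25 ± 0.50. Col26a1, which also passed the filter through the pineal alone, was 1.53 ± 0.37 higher. Dcn, the collagen-binding proteoglycan, was 3.77 ± 1.56 higher by its brightest probe set, X59859_i_at, with an adjusted p of 0.0403 by limma and a call lost in 12 of 27 alternatives, 10 of which leave out a single array (ZT6 array 2 or 3, CT6 array 2 or 3, ZT12 array 1 or 2 or CT12 array 3 of the retina, or the pineal ZT6, CT6 or ZT12 array). By Z12298cds_s_at it differed by 1.36 ± 1.08 and did not pass, and by rc_AI639233_s_at, which passed the filter through the pineal alone, by 4.55 ± 1.03, and all 3 overlapped.

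The collagens called higher in the retina were Col2a1 and Col9a1, both of which passed the filter through the retina alone. Col2a1 read 6.58, 6.12, 6.63 and 8.14 in the pineal and 12.03 to 12.93 with a median of 12.53 in the retina, with a difference of -5.68 ± 0.24, and its other probe set, L48618_at, under the filter in both, differed by -0.58 and did not pass. Col9a1, a collagen on the surface of type II fibrils, read 6.47, 6.12, 6.46 and 6.27 in the pineal and 7.72 to 11.61 in the retina, a difference of -3.37 ± 0.49 with no overlap. Col10a1, the collagen of hypertrophic cartilage, was called the other way, at 0.52 ± 0.19, a call lost as deposited and without the pineal ZT6, CT6 or ZT12 array. Col11a1, the other partner of type II fibrils, was under the filter by both probe sets, and without a filter they differed by -1.96 and -1.41 with adjusted p of 5.48e-05 and 0.00657 by limma. Sparc was lower in the pineal by 3 of 4 probe sets, with the brightest at 11.61, 11.14, 11.47 and 11.39 against 14.20 to 16.19 in the retina, a difference of -4.11 ± 0.23. The remaining Sparc probe set differed by -0.53 ± 0.35 and did not pass.

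Receptors divided by subunit. Of 9 integrin probe sets 5 were called higher in the pineal and 2 lower, and of 5 syndecan probe sets 2 higher and 1 lower. Beside these stand 39.4% of all probe sets called higher and 36.4% called lower. Itgae, the alpha E subunit of lymphocytes, read 10.89, 10.54, 10.78 and 10.58 in the pineal against 8.24 to 9.26 in the retina, a rise of 1.69 ± 0.15 by AF020046_i_at, while AF020046_s_at and AF020045_at, under the filter, differed by -0.49 and 0.92 and did not pass. Itga1 rose by 1.08 ± 0.14 and Itgb1 by 1.07 ± 0.37, the latter with overlap and a call lost without the pineal ZT6 or the pineal CT6 array. Itgav was lower in the pineal, at 8.37, 8.21, 8.45 and 6.51 against a lowest retina reading of 10.13 and a retina median of 10.37, a difference of -2.53 ± 0.25 in a probe set that passed through the retina alone. Itga7 gave opposite calls, 1.47 ± 0.18 by its brightest probe set and -0.80 ± 0.18 by X65036_g_at, and X74293_s_at, under the filter, differed by -2.66. The direction for that gene therefore depends on the probe set. Sdc4 rose in the pineal by 1.57 ± 0.18 by S61868_g_at, at 16.38, 16.70, 16.26 and 16.84 against 14.33 to 15.87 in the retina, and by S61868_at it differed by 0.22 ± 0.16, which did not pass. Sdc2 rose by 1.64 ± 0.35, and Sdc3, the neural member, which passed through the retina alone, differed by -2.06 ± 0.42. Lamb2 rose by 1.65 ± 0.24 by rc_AI104225_at and differed by -0.04 ± 0.15 by its other probe set.

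Among the enzymes Mmp23, a small metalloproteinase without the usual haemopexin end, read 11.05, 11.49, 11.03 and 11.08 in the pineal against 6.51 to 8.96 in the retina, a difference of 3.03 ± 0.43 in a probe set that passed the filter through the pineal alone. Mmp2 rose by 1.01 ± 0.40 with an adjusted p of 0.0354 by limma, and this call was lost in 5 alternatives: the values as deposited (0.51, adjusted p = 0.27), the fit without CT12 arrays 1 and 2 (0.96), and the fits without the pineal ZT6, CT6 or CT12 array (1.01, 0.70 and 1.08, the last 3 with adjusted p of 0.0794, 0.184 and 0.0607 by limma). Its probe set U65656_at, under the filter, differed by 2.76 with an adjusted p of 0.00021. Mmp14 was lower by -1.05 ± 0.39, a call lost without the pineal ZT12 or CT12 array. Of the inhibitors, Timp3 was lower in the pineal by -0.92 ± 0.31, a call lost without the pineal CT12 array, Timp1 was higher by 0.70 ± 0.28, a call lost in 9 of 27 alternatives, and Timp2 differed by 0.01 ± 0.40. Among markers of other cell types, the 14 lens genes had mean levels of 9.61 to 9.94 in the pineal and 11.12 to 16.94 in the retina, the 5 fibroblast genes 11.58 to 12.18 against 10.33 to 12.08, and the 5 blood genes 12.43 to 14.24 against 11.30 to 12.72. The fibroblast genes did not agree, with Pdgfra, Lum and Postn above their retina medians in the pineal and Thy1 and S100a4 below them. Thy1 read 9.78 to 10.84 against a retina median of 14.14, and S100a4 10.98 to 11.60 against 11.86. The part of these cell types in the tissue differences was not tested.

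The inducible metalloproteinases Mmp3, Mmp7, Mmp8, Mmp10, Mmp12 and Mmp13 lie close together on rat chromosome 8, and their proximal promoters are shown because 5 of the 6 share an AP-1 element and their levels differed between tissues in both directions. Each line gives the last 100 bases before the start, plus strand of GRCr8, from RefSeq, with the element (TGANTCA, which reads the same way on either strand) in capitals.
Mmp13: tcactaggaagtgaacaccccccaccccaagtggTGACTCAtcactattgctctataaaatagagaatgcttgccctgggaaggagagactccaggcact
Mmp12: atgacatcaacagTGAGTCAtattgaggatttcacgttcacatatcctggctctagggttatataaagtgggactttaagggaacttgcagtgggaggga
Mmp3: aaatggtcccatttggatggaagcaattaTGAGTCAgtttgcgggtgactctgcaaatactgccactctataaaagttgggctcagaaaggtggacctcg
Mmp10: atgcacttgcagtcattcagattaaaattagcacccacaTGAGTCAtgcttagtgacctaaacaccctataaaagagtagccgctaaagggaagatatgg
Mmp8: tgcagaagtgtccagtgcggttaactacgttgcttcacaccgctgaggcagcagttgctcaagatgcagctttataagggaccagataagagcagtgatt
Mmp7: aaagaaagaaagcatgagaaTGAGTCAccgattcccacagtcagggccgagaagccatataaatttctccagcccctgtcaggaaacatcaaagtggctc

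These windows are chr8:12782729-12782828 for Mmp13, chr8:12866552-12866651 for Mmp12, chr8:12925181-12925280 for Mmp3, chr8:12974607-12974706 for Mmp10, chr8:13008790-13008889 for Mmp8 and chr8:13132943-13133042 for Mmp7. The element began 66 bases before the start in Mmp13, 87 in Mmp12, 71 in Mmp3, 61 in Mmp10 and 80 in Mmp7, and this window of Mmp8 holds no match. Within 250 bases it was found in 6 of 40 member promoters (15%), the other being Lama3, against 6.34% of all. A TATAAA box, on either strand, lay in 10 of 40 (25%), which include all 6 of these genes, against 12.9% of all. In Mmp8 it lay on the minus strand only (TTTATA as printed). Mmp7, the matrilysin, passed the filter, through the pineal, and was 0.67 ± 0.18 higher there, with 9.05, 9.14, 9.71 and 9.66 in the pineal and 8.15 to 9.12 in the retina, so the tissues overlapped, a call lost with the values as deposited. The others were under it. Without a filter Mmp3 (stromelysin 1) differed by 1.61, Mmp8 (neutrophil collagenase) by 1.44, Mmp12 (macrophage elastase) by 0.99, Mmp10 (stromelysin 2) by 0.73 and Mmp13 (collagenase 3) by -0.99, all with an adjusted p under 0.05 by limma, from 0.000415 for Mmp3 to 0.0420 for Mmp13. Low probe sets of this kind lie near the background of the array.

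Of the 29 probe sets under the filter over both tissues, that fit called 9 higher and 6 lower in the pineal, against 61.1% of all probe sets in it. Lama2, the laminin alpha 2 chain of muscle and peripheral nerve, was higher by 1.35 and Itgb3, the beta 3 subunit of platelets, by 1.06, while Lama3 and Lama5 were lower by -1.03 and -0.71. Mmp9, the gelatinase B of leukocytes, lay between 6.13 and 8.62 in the retina and 6.32 and 6.90 in the pineal and did not pass. Itgam, the alpha M subunit of macrophages and microglia, had a median of 7.58 in the retina and read 6.14 to 7.74 in the pineal and did not pass either. Both remained under the filter in the retina arrays as well.

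In the pineal, hour 12 and hour 6 could be compared only between single arrays, with the values as deposited and no test. Of 56 probe sets, 0 moved by at least 1 log2 unit the same way under ZT and CT, against 2.56% of all probe sets. The direction was more often down: 35 of 56 (62.5%) were lower at hour 12 in both regimes, against 37.9% of all, and 7 (12.5%) were higher in both, against 25.3%. The medians were -0.38 under ZT and -0.24 under CT, against -0.07 and -0.07 over all. The differences in that direction included those of Col3a1 and Dcn. Col3a1, by X70369_s_at, read 12.64 at ZT6 and 11.84 at ZT12, and 11.69 at CT6 and 10.61 at CT12, differences of -0.80 and -1.08. Dcn differed by -0.70 and -1.17 by X59859_i_at and by -0.72 and -0.76 by Z12298cds_s_at, but by 0.34 and -0.51 by rc_AI639233_s_at. Timp2 differed by -0.70 and -0.85, Itgb7, a leukocyte integrin subunit, by -0.66 and -1.09 (its other probe set, S44606_s_at, by -0.79 and 1.66), and Mmp2 by -0.60 and -1.70 by U65656_at. On the other side, Itga8, an alpha subunit of mesenchymal cells, differed by 1.23 and 0.51, Lama1 by 0.78 and 0.38, and Sdc4 by 0.27 and 0.54 by S61868_g_at. The pineal ZT12 array is the one whose description gives another hour, so the ZT differences rest on its title.

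**Figure D5:**
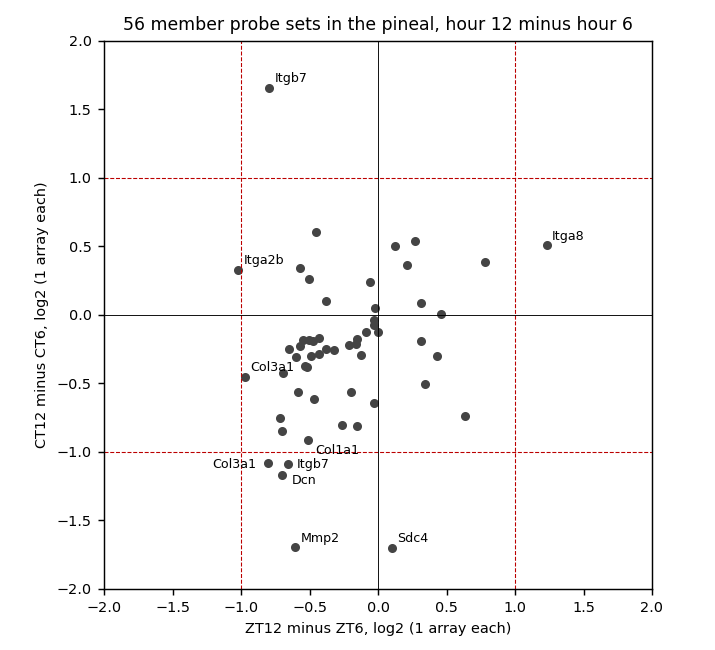
Each point is 1 of 56 matrix and integrin probe sets, with the log2 difference of hour 12 minus hour 6 under ZT on the horizontal axis and under CT on the vertical axis, each from single pineal arrays as deposited. Points gather in the lower left, 35 of 56, and no point lies beyond the dashed lines at 1 log2 unit in the same direction on both axes.

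Genes that work with these proteins were read from lists of related genes. All 11 measured genes of matrix assembly and collagen processing passed the filter. At hour 12 against hour 6 in the retina 11 of 11 were positive, against 43.7% of all probe sets. Of these 1 was called, against 0.21% of all probe sets. It was P4ha1, the prolyl hydroxylase that collagen folding needs, at 0.96 ± 0.13 with an adjusted p of 0.0131 by limma. P4ha1 differed by 1.01 ± 0.18 under ZT and 0.92 ± 0.18 under CT. No gene of the other lists was called in any of the 7 retina comparisons: 0 of 18 other matrix glycoproteins and proteoglycans, 0 of 7 matrix proteases, 0 of 13 adhesion genes and 0 of 9 TGF-beta genes. The share of all probe sets called in those comparisons was 0.0% to 0.61%. The medians of these lists at CT12 against CT6 were 0.58, 0.12, 0.36 and 0.25, and that of the assembly genes was 0.56. Between tissues, 3 assembly genes were higher in the pineal and 4 lower, of 11, and 6 glycoprotein genes were higher and 6 lower, of 18. Of 8 protease genes 3 were higher and 5 lower, of 13 adhesion genes 6 and 4, and of 8 TGF-beta genes 4 and 3, beside the 75.8% of all probe sets called, 39.4% higher and 36.4% lower. Reln, or reelin, a secreted glycoprotein of neurons, differed by -4.17 ± 0.19, the tetraspanin Cd9 by -3.54 ± 0.18, Cav1, the coat protein of caveolae, by -5.45 ± 0.29, and the protease inhibitor A2m by 2.35 ± 0.13.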

How the data were processed

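The deposited values are linear intensities of 8799 probe sets on 16 arrays. How the authors summarized, background-corrected and scaled them is not given in the sources used here. After 59 control probe sets were removed, the intensity of each deposited array was quantile normalized (12 retina arrays, or all 16 for the tissue comparison) and put on a log2 scale with an offset of 16, computed here from the authors' intensities. Pineal hours were compared as deposited. Probe sets were kept where their mean reached the 40th percentile (8.88 in the retina, 8.82 over both tissues), which left 5244. The tests were two-sided and came from limma 3.58.1 (lmFit and eBayes, R 4.3.3), with all 4 retina groups in 1 fit, tissue plus condition in the other, and Benjamini-Hochberg adjustment over the 5244 probe sets at 0.05. The procedure was tested on simulated data with normal noise, drawn for both tissues from the retina arrays other than CT12 array 1. Of 100 changes each of 2-fold and 4-fold, 77 and 94 were called at ZT12 against ZT6, with 10 false calls. Between tissues 89 and 95 were called, with 13 false calls. The simulation left out CT12 array 1, so it cannot show how the fits behave with that array. Array data give no counting depth, so the number of arrays limits the precision. Names come from the platform annotation, in which 7006 probe sets have 1 symbol, 308 several and 1426 none, and all 86 member probe sets matched the RefSeq gene table. Genes were named by a rule: members without overlap that differed most between tissues, the 4 higher and 4 lower with the smallest p in each retina comparison, a list of main matrix genes array by array, and the largest paired pineal differences, with the brightest probe set standing for a gene and others given where they differ. Mmp7 to Mmp13, Lama2, Lama3, Lama5, Itgb3, Mmp9, Itgam and Col11a1, Col10a1, Dcn, Sdc2, Sdc3 and Mmp14 between tissues, and probe sets other than the brightest, were named after their values were seen. The members and gene lists were chosen with earlier results of these data known. Alternatives were other offsets, scalings, filters and priors, the title number as a block, and arrays left out. Leaving out ZT6 array 2 and CT6 array 3, or CT12 arrays 1 and 2, was added after seeing the data.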

Additional observations from a re-analysis of the deposited data

Results flagged for a closer look

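In groups of 4 to 10 arrays, the gap between the highest or lowest array and its nearest neighbour was compared with the range of the group, for 32 groups of named members, and 2 groups held an array further from the rest than the 95% limit for 4 arrays. Chance gives about 1 in 20. Mmp23 read 11.49 on the pineal ZT12 array and 11.03 to 11.08 on the other pineal arrays, a gap of 0.888 of the range, which remains above all retina arrays. Itgav read 6.51 on the pineal CT12 array and 8.21 to 8.45 on the other pineal arrays, a gap of 0.876 of the range, and all 4 lie below the retina.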

How the results depend on the processing

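The counts of matrix probe sets called stayed within 1.5 times of the reported ones in 162 comparisons with an alternative and moved further in 6, and their medians stayed within 1 SD of the spread between arrays in 167 and moved further in 1. Leaving out 1 array of the groups compared at a time gave 0 to 21 calls at CT12 against CT6, 0 to 11 at CT12 against ZT12, 0 to 5 at hour 12 against hour 6, 0 to 2 for the difference between the hour effects, 0 in the other retina comparisons and 29 to 40 between tissues, the upper values in the retina all without CT12 array 3 and the lowest between tissues without the pineal CT6 array. Without CT12 array 1, an array of neither group, 1 of 48 members passed at ZT12 against ZT6 (Sdc4), against 1.51% of all. Without all retina arrays numbered 3, the CT12 minus ZT12 median was 0.94. With a filter at the 60th percentile 21 of 27 members were called between tissues, 14 higher and 7 lower, against 79.1% of all, and the fit tested fewer probe sets. Without CT6 array 1, the CT6 minus ZT6 differences of Mmp2 and Itga2b reversed to 0.15 and 0.0054 (over all single arrays left out, -1.28 to 0.15 and -0.325 to 0.0054). The causes of the other changes were not tested. The title number as a replicate block gave 0 member calls in every retina comparison and changed no call of a member. Over all probe sets it gave 11, 3, 8, 0, 7, 0 and 2 calls in the order of the comparisons in the report. Same-numbered arrays did not deviate together more than others. The correlation exceeded 0.1 in 5 of 18 same-numbered pairs (range -0.41 to 0.41) and in 10 of 36 pairs of different number (range -0.52 to 0.53). Single outlying arrays weigh on these correlations, so they cannot show whether the numbers mark shared animals or batches.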
